A study of Homo sapiens with 6 samples.

Results

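The FAT, Dachsous and CELSR genes encode the giant cadherins, cell-surface proteins whose outer part is a long chain of cadherin repeats. The 9 genes FAT1, FAT2, FAT3, FAT4, DCHS1, DCHS2, CELSR1, CELSR2 and CELSR3 were taken by symbol from a table of 38167 genes, and all 9 passed the filter on low counts that left 31074 genes tested. RNA came from small extracellular vesicles in the medium of Cal27 spheroids, an established cell line from a squamous carcinoma of the tongue, at day 14. Soft libraries (n = 3) came from spheroids in Matrigel at 3 mg/mL and stiff libraries (n = 3) from spheroids in Matrigel at 12 mg/mL, a gel of basement membrane proteins. No genotype, drug or transgene separated the groups, and all 6 libraries came from 1 cell line. The set was chosen by family name, but with the stiff-against-soft fold changes in view: CELSR3 was selected on its higher counts in stiff. That contrast is therefore described for CELSR3 and not tested.

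FAT and Dachsous proteins sit on neighbouring cells and bind each other across the junction. In flies this pair passes polarity from cell to cell and restrains growth through the Hippo kinases, with the four-jointed kinase tuning the binding. CELSR proteins are the vertebrate forms of Flamingo, bind their own kind across junctions, align cells in the plane of a sheet together with VANGL and Frizzled proteins, and also belong to the adhesion G protein-coupled receptors. In squamous epithelium FAT1 is known as a tumour suppressor that is often mutated in oral carcinoma, on the long arm of chromosome 4, and FAT2 as a member found mainly in stratified epithelia.

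The members differ in base composition, which is shown first because it is set beside their levels below. In GENCODE release 29 (GRCh38) the exons of DCHS1, CELSR3, CELSR1 and CELSR2 were 62.0%, 61.2%, 60.8% and 60.6% G or C. Those of FAT2 were 52.8%, and those of FAT1, FAT3, FAT4 and DCHS2 were 46.5%, 44.96%, 44.4% and 44.3%. A stretch of 61 bases, the length of 1 read, was taken from the largest coding exon of 4 members at the place nearest to the gene's mean composition. These are reference sequences, written 5′ to 3′ on the strand of the gene, with G and C in capitals. The CELSR stretches hold 37 G or C of 61 bases, the FAT1 stretch 28 and the FAT3 stretch 27.
CELSR3 (exon 1, chr3:48662537-48662597, minus strand): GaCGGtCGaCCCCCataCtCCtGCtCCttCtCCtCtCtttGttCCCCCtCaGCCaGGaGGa
CELSR1 (exon 1, chr22:46536406-46536466, minus strand): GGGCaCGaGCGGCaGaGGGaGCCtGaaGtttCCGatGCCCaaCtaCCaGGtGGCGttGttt
FAT1 (exon 12, chr4:186621508-186621568, minus strand): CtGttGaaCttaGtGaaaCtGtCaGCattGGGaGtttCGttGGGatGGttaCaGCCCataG
FAT3 (exon 9, chr11:92797837-92797897, plus strand): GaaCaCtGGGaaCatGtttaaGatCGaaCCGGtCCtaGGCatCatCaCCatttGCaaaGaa

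No stretch of 61 bases in the transcripts of 1 member occurred in those of another. FAT1, FAT4, CELSR1 and CELSR2 shared no such stretch with any other annotated gene on either strand. DCHS2, DCHS1 and FAT2 shared 7.36%, 7.24% and 3.32% of theirs with antisense genes that overlap them, FAT3 shared 0.125% and CELSR3 0.043%. The strand setting of the counting was not given in the sources used here, so reads of DCHS2, DCHS1 and FAT2 and of their antisense partners cannot be told apart. The union of exons measured 10.8 kb in DCHS1, 12.3 kb in CELSR2, 12.8 kb in CELSR1, 13.9 kb in CELSR3, 14.5 kb in FAT2, 16.2 kb in FAT1, 16.4 kb in FAT4, 19.3 kb in FAT3 and 20.4 kb in DCHS2. The largest coding exon alone made up 25.9% (DCHS2) to 39.2% (CELSR1) of a member's coding bases.

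Libraries held 2445498 to 2545385 counts in soft and 2697502 to 2977837 in stiff. The 9 members summed to 2665, 2882 and 2816 counts per library in soft and to 2627, 2864 and 3014 in stiff. The labelled cell type was checked against its markers. All 14 squamous markers had counts in every library, with a median level of 7.84 TMM-scaled CPM (counts scaled to a common library size) per kb of exon. Markers of liver and muscle stood at a median of 12.3 (7 genes), blood at 8.62 (6 genes), neurons and glia at 5.46 (6 genes), immune cells at 3.89 (6 genes) and fibroblasts at 3.85 (7 genes). Only PPBP, a platelet gene, had a count of 0, in 1 soft library. The 381 olfactory receptor genes, which are known to be silent outside the nose in most tissues, had a median of 4.28. The median of the squamous markers was thus above those of neural, immune and fibroblast markers and below those of blood and of liver and muscle, tissues that are not in the culture. A member's level was therefore read against the silent genes.

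Mean levels of the giant cadherins per kb ran from below the median of the silent olfactory receptor genes to about 4 times it. Most of those silent genes lay between 1.91 and 10.4 CPM per kb. Only CELSR1 and CELSR2 had means above this range, and the other members lay inside it. The silent genes had a median of 43.1% G or C, against 60.6% to 62.0% in DCHS1 and the CELSR genes. For these members a ratio to silent genes is therefore also a contrast of base composition. CELSR1, which directs planar polarity in skin, was highest at 17.9 ± 1.38 CPM per kb (SD, n = 6 libraries), followed by CELSR2 at 12.4 ± 0.857. FAT3, best known from neurons of the retina, stood at 9.36 ± 0.491, DCHS1 at 9.22 ± 0.453 and CELSR3, known for guiding axon tracts, at 7.91 ± 1.27. FAT2 stood at 6.34 ± 0.723. FAT1 was near the bottom at 4.33 ± 0.358, with FAT4, the main partner of DCHS1, at 3.81 ± 0.365 and DCHS2 last at 3.31 ± 0.3005.

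In this order the ranges over 6 libraries did not overlap between CELSR1 and CELSR2, between CELSR2 and FAT3, or between FAT2 and FAT1. They overlapped between all other neighbours in the order. Among the lowest 3, FAT4 overlapped both FAT1 and DCHS2, whereas FAT1 (3.92 to 4.92 CPM per kb) lay wholly above DCHS2 (2.84 to 3.72). Divided by the median of olfactory receptor genes in the same library, FAT1 was at 1.01 ± 0.0913, FAT4 at 0.892 ± 0.0840 and DCHS2 at 0.775 ± 0.0906 (SD, n = 6). CELSR1 was at 4.196 ± 0.417 and FAT3 at 2.19 ± 0.106. Of the 381 olfactory receptor genes, 183 had a higher level per kb than FAT1. FAT2, the member of stratified epithelia, was at 1.49 ± 0.204.

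**Figure D1:**
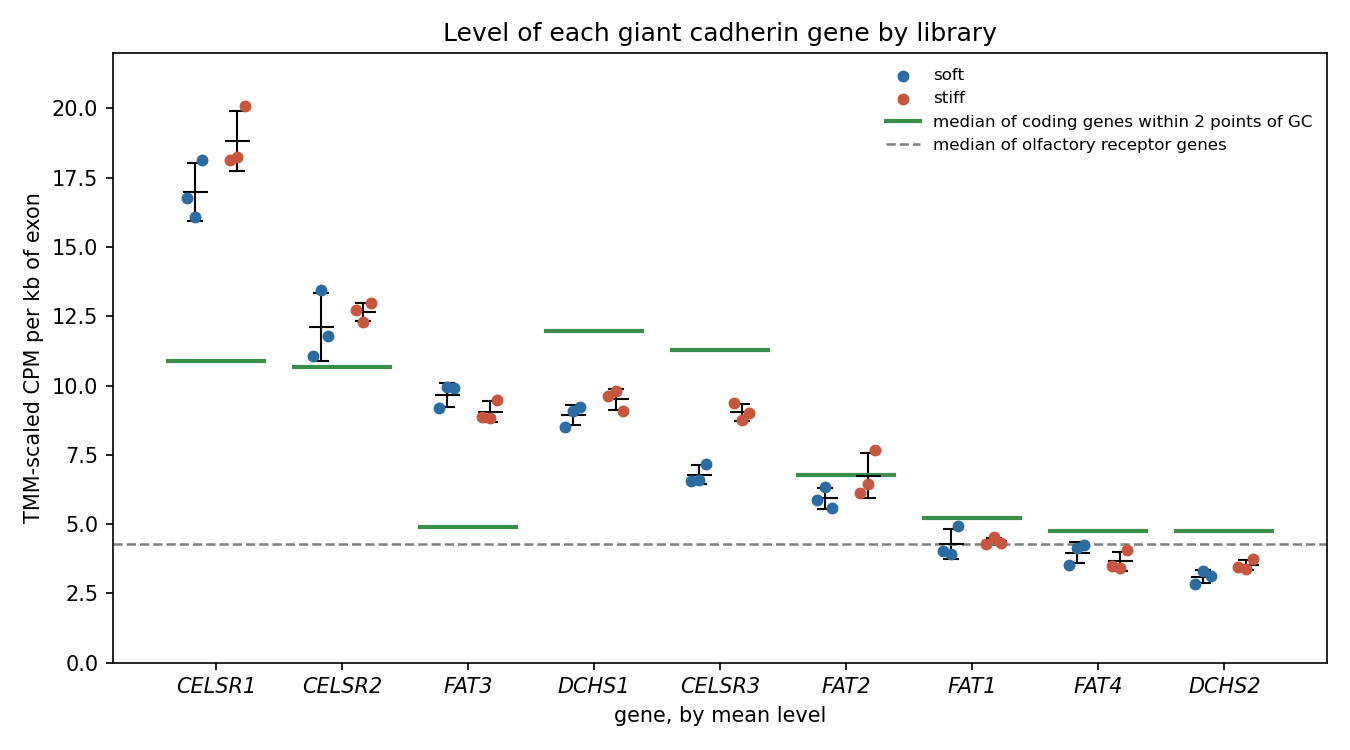
TMM-scaled CPM per kb of exon (vertical axis) for each gene (horizontal axis, by mean level), with 1 point per library (soft blue, stiff red), black bars for the mean and SD of each group (n = 3), a green line for the median of coding genes within 2 percentage points of the gene's exon GC content and a dashed line for the median of olfactory receptor genes. FAT1 lies around the dashed line, FAT4 and DCHS2 lie below it, and CELSR1 and FAT3 lie furthest above their green lines.

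Level and base composition went together. Over 18735 coding genes, which share the 6 libraries, exon GC content and level per kb had Spearman's rho = 0.67. The median level was 4.49 CPM per kb for genes of 40 to 45% GC and 12.4 for those of 60 to 65%. Over the 9 members rho was 0.63. Relative to coding genes within 2 percentage points of its own GC content, FAT3 was at 1.92 ± 0.0988 times their median and CELSR1 at 1.64 ± 0.0865 (SD, n = 6). CELSR2 was at 1.16 ± 0.0735, FAT2 at 0.935 ± 0.102 and FAT1 at 0.829 ± 0.0724. FAT4 was at 0.800 ± 0.0775, DCHS1 at 0.771 ± 0.0272, CELSR3 at 0.698 ± 0.0940 and DCHS2 at 0.695 ± 0.0662. The middle 90% of all 19235 coding genes lay between 0.450 and 2.17 on this scale, and no member was outside it.

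**Figure D2:**
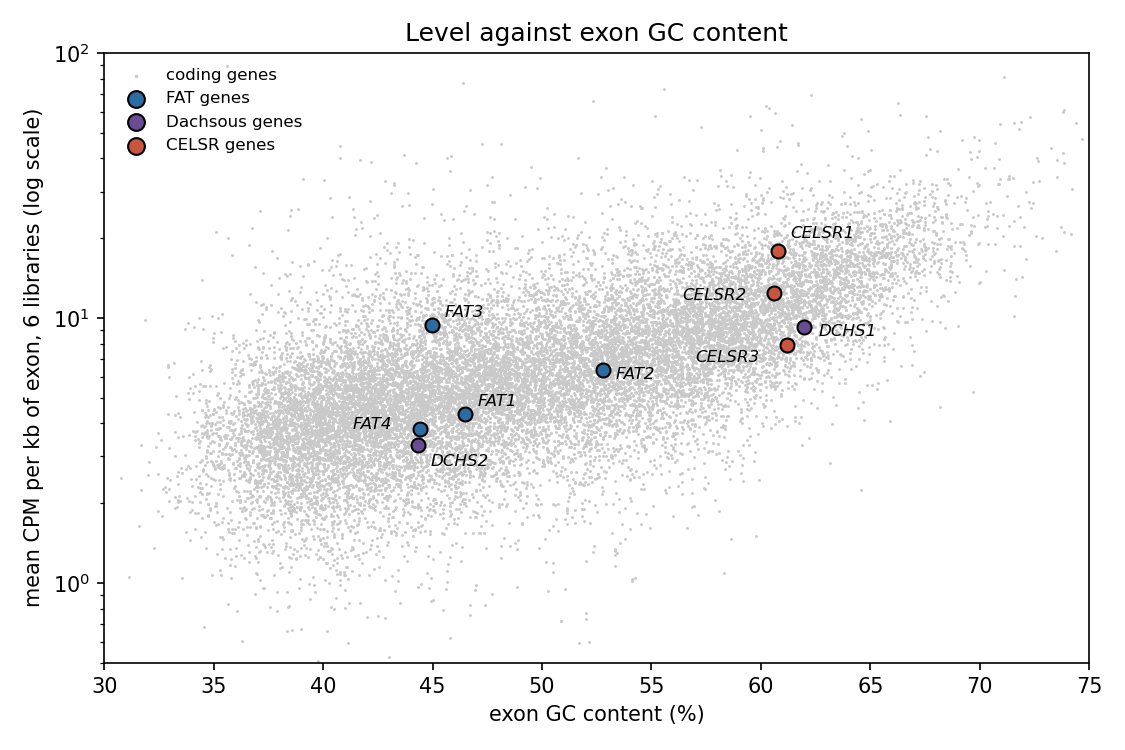
Mean level over 6 libraries in CPM per kb of exon (vertical, log scale) against exon GC content in percent (horizontal) for coding genes (grey points, those within the axes) and the 9 giant cadherins (large points, coloured by subfamily). CELSR1 at 17.9 and FAT3 at 9.36 sit high in the cloud for their composition, while DCHS2 and CELSR3 sit lowest of the members in it.

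Levels were then set beside those of the genes around each member. For this description, added after the levels had been seen, the 25 coding genes on each side were put on the same scale, relative to genes of like GC content. FAT1, FAT4 and DCHS2 lie on chromosome 4 (186587783 to 186726722, 125316399 to 125492932 and 154231742 to 154495570). The chromosome's 739 coding genes had a median of 0.679, and the genes around the 3 members had medians of 0.705 (31 genes, to the end of the chromosome), 0.641 (50 genes) and 0.718 (50 genes). FAT3 on chromosome 11 (92352096 to 92896470) lay among genes with a median of 1.49, of which 13 of 50 exceeded it. DCHS1 on the other arm of chromosome 11 (6621323 to 6655854) lay among genes at 0.887, and the whole chromosome was at 0.965. CELSR3 on chromosome 3 (48636469 to 48662915) lay among genes at 0.581, where the chromosome was at 0.949. CELSR1 on chromosome 22 (46360834 to 46537170) lay among genes at 1.18, with 11 of 50 above it, and among its 10 nearest the median was 1.77. FAT2 on chromosome 5 (151504093 to 151568944) and CELSR2 on chromosome 1 (109250019 to 109275750) lay among genes at 0.879 and 0.994. DNA copy number of the line was not measured here, and its part in these levels was not tested.

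**Figure D3:**
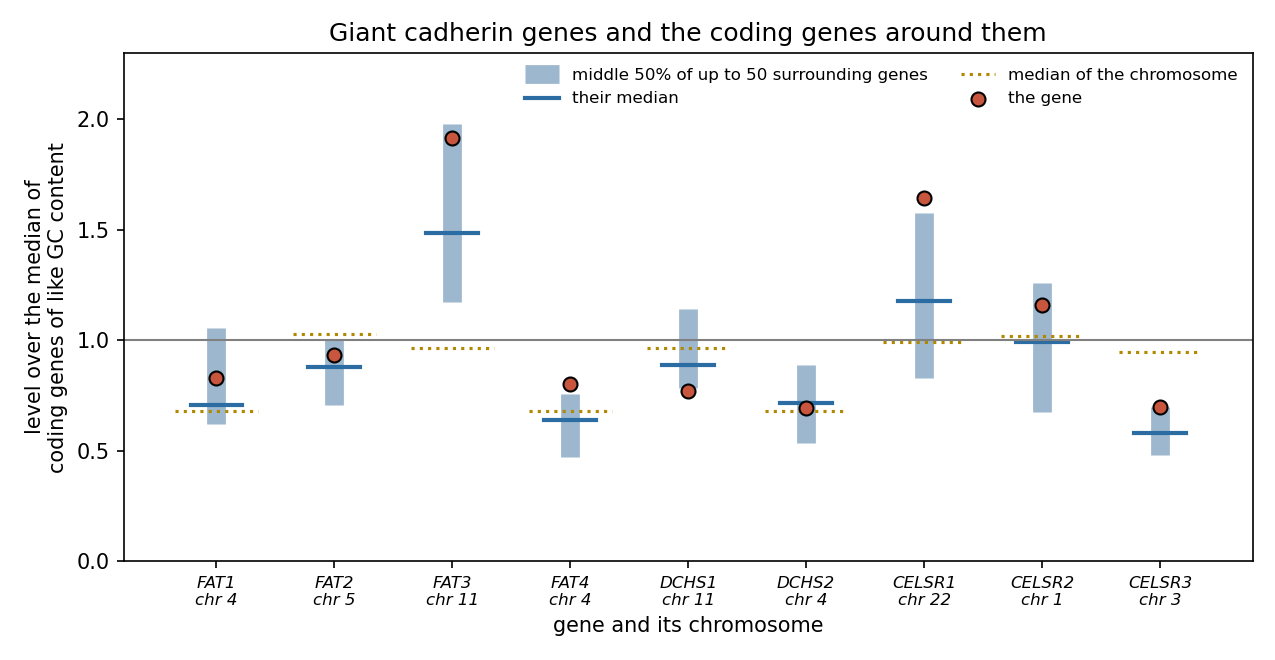
Level divided by the median of coding genes of like GC content (vertical axis) for each gene (red point), the middle 50% of up to 50 surrounding coding genes (blue bar), their median (blue line) and the median of the whole chromosome (dotted line). Each gene but CELSR2 lies on the same side of 1 as the median around it. FAT3, with a median of 1.49 around it, and CELSR1, with 1.18, lie above 1. CELSR2 lies above 1 with a median of 0.994 around it.

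Between stiff and soft vesicles most giant cadherins did not differ by more than the spread between libraries. By edgeR's quasi-likelihood test with Benjamini-Hochberg adjustment, 1 of 9 members had an adjusted p under 0.05, against 0.451% of all genes tested (0.286% higher and 0.164% lower). DESeq2 called 0 of 9, against 0.138% of all genes (0.0483% lower), and edgeR with GC offsets 0 of 9, against 0.251% (0.139% lower). The member called was CELSR3, and because it had been picked out for this contrast nothing is read from the count. Log2 fold changes were above 0 in 7 of 9 members, against 49.1% of all genes, and their median was 0.09 against −0.0048 over all genes and 0.02 over coding genes. When libraries were scaled by their totals alone the median of all genes moved to −0.27, and 6 of those 7 members turned negative. CPM values of the stiff libraries lay wholly above the soft ones for CELSR3, CELSR1 and DCHS2, where 7.38% of all genes did so, and wholly below for 0 members, where 6.76% did. CELSR1 separated only narrowly, with its highest soft library at 232.26 CPM and its lowest stiff one at 232.29. CELSR3, selected on this contrast, is counted among these genes, among the 7 above 0 and in the median. None of these values is therefore read as a shift of the family. In vesicle RNA from many cells, fewer vesicles with a transcript and less of it per vesicle cannot be told apart.

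In soft vesicles CELSR3 had 248, 253 and 264 counts, which is 91.0, 91.6 and 99.5 CPM. In stiff vesicles it had 316, 323 and 328 counts, which is 129.9, 121 and 125 CPM. Every stiff library was above every soft one, in counts and in CPM. The mean went from 94.1 ± 4.77 to 125 ± 4.37 CPM (SD, n = 3 each), a log2 fold change of 0.41 ± 0.090 (SE), or 1.33-fold. Coding genes of like GC content (1936 tested) had a median log2 fold change of 0.07 with a SD of 0.20. With offsets for GC content the fold change of CELSR3 was 0.33. The 9 tested genes among the 10 nearest to CELSR3 had a median of 0.05 and a maximum of 0.29. Of them 0 were called by edgeR, against 0.451% of all genes. CELSR3 was selected on this contrast and these other genes were not, so its larger value beside theirs is no support for it.

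Ratios within a library do not depend on scaling between libraries. The level of CELSR3 relative to CELSR1 was 0.391, 0.410 and 0.396 in soft libraries and 0.516, 0.479 and 0.448 in stiff ones. Relative to CELSR2 it was 0.592, 0.491 and 0.609 in soft and 0.736, 0.710 and 0.694 in stiff. Both ratios were higher in each stiff library than in each soft one. Since CELSR3 was selected on its higher counts in stiff, these ratios describe that choice and are no further support for it. For comparison, the ratio of FAT1 to FAT2 was 0.687, 0.619 and 0.882 in soft and 0.703, 0.701 and 0.561 in stiff, with groups that overlapped.

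**Figure D4:**
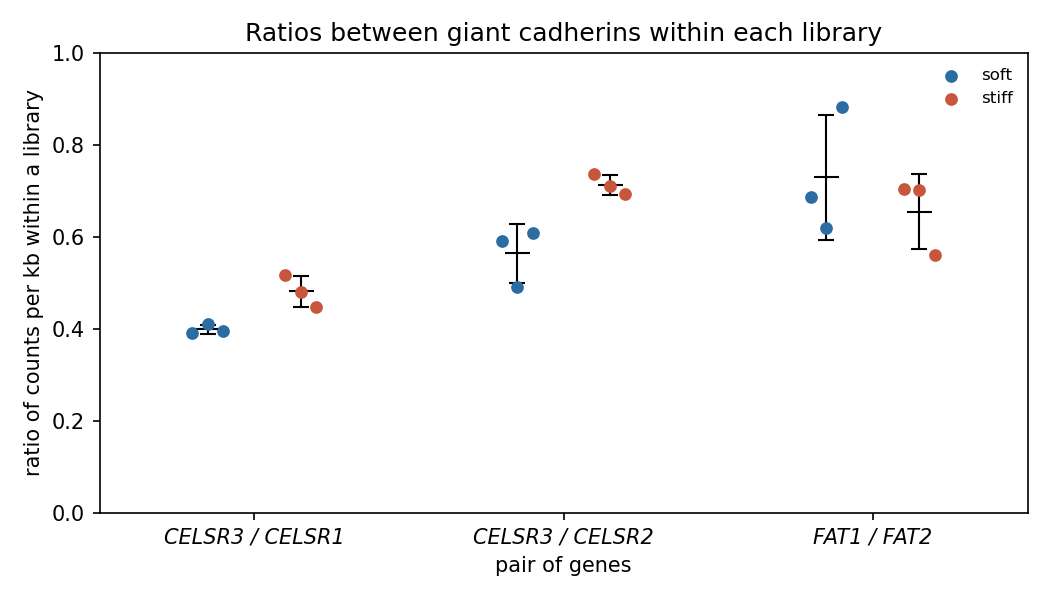
Ratio of counts per kb of exon between 2 genes within a library (vertical axis) for 3 pairs (horizontal axis), with 1 point per library and black bars for the mean and SD of each group (n = 3). The CELSR3 to CELSR1 ratio is 0.391 to 0.410 in soft and 0.448 to 0.516 in stiff, and the FAT1 to FAT2 ratio overlaps between groups.

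The other CELSR genes did not pass the test. CELSR1 had 585, 569 and 616 counts in soft and 565, 622 and 676 in stiff, which is 215, 206 and 232.3 CPM against 232.3, 233 and 257 CPM. Its groups met at 232.3 CPM, where the highest soft library lay just under the lowest stiff one. It differed by a log2 fold change of 0.15 ± 0.074 (SE, edgeR unadjusted p = 0.046, adjusted p = 0.512). The interval was 0.003 to 0.29 at 1.96 SE, and the fold change was 0.07 with GC offsets. Of all genes 9.51% had an unadjusted edgeR p under 0.05. CELSR2, a planar polarity receptor of ciliated cells of the brain ventricles, had 150 ± 15.1 CPM in soft and 156 ± 4.07 in stiff (SD, n = 3; log2 fold change 0.06 ± 0.081, edgeR adjusted p = 0.871). Its highest value of 166 CPM was in a soft library.

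Dachsous genes, the ligands of the pathway, gave no call (0 of 2 by edgeR, 0 by DESeq2, 0 at an unadjusted edgeR p under 0.05). The shares over all genes were 0.451%, 0.138% and 9.51%, so that few calls are likely in any 2 genes. DCHS1, which pairs with FAT4, had 91.7, 97.8 and 99.2 CPM in soft and 103.6, 105 and 97.7 in stiff, so that 1 stiff library lay within the soft range. The log2 fold change, 0.09 ± 0.093 (SE), did not pass (edgeR adjusted p = 0.831) and became −0.0046 with GC offsets. DCHS2 had 158, 186 and 170 counts in soft and 172, 184 and 200 in stiff. In CPM all stiff libraries (69.1 to 76.0) were above all soft ones (58.0 to 67.4), and the log2 fold change of 0.19 ± 0.11 did not pass (edgeR adjusted p = 0.613, interval −0.029 to 0.41 at 1.96 SE). GC offsets left that value at 0.20.

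FAT genes, the receptors, gave no call either (0 of 4 by edgeR, 0 by DESeq2, 0 at an unadjusted edgeR p under 0.05). Over all genes these shares were 0.451%, 0.138% and 9.51%. FAT1 had 178, 175 and 211 counts in soft and 169, 195 and 183 in stiff libraries, or 69.4 ± 8.84 and 70.8 ± 2.11 CPM (SD, n = 3 each). All 3 stiff values, 69.5 to 73.2 CPM, lay inside the soft range of 63.4 to 79.6. Stiff over soft gave a log2 fold change of 0.03 ± 0.11 (SE), which did not pass (edgeR adjusted p = 0.966). The interval at 1.96 SE was −0.18 to 0.24. This interval is not adjusted for the number of genes tested, so it is not the detection limit of the adjusted test. DSP, a squamous marker, was not called at a log2 fold change of 0.36 ± 0.10 (SE, edgeR adjusted p = 0.0835). FAT4 had 65.1 ± 6.31 and 60.1 ± 5.58 CPM (log2 fold change −0.11 ± 0.12, edgeR adjusted p = 0.818).

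FAT2 had 86.2 ± 5.50 CPM in soft and 98.0 ± 11.9 in stiff, with its highest value of 111 CPM in stiff replicate 3. The log2 fold change of 0.19 ± 0.096 (SE) did not pass (edgeR adjusted p = 0.535), and without that library it was 0.09. FAT3, the longest FAT gene, had 482, 529 and 506 counts in soft and 415, 454 and 481 in stiff. In CPM 2 stiff libraries lay below the soft range of 177 to 192 and 1, at 183, lay within it. The log2 fold change of −0.094 ± 0.077 (SE) did not pass (edgeR adjusted p = 0.755).

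**Figure D5:**
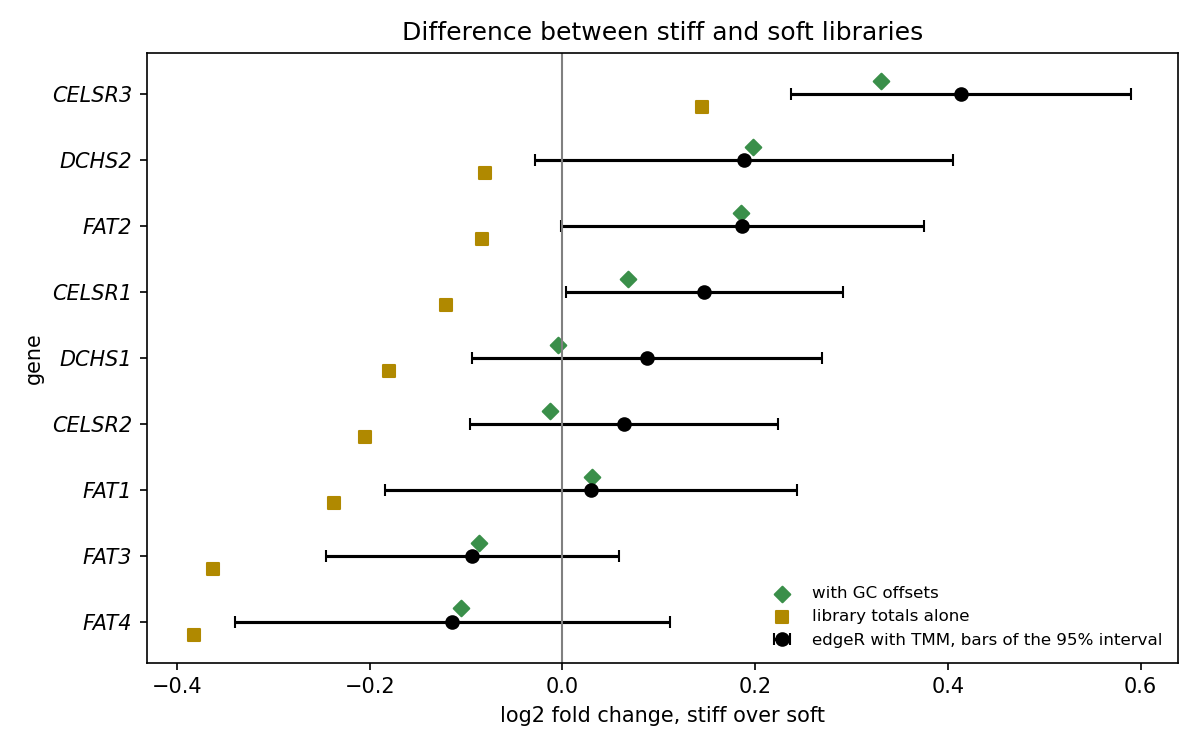
Log2 fold change of stiff over soft (horizontal axis) for each gene (vertical axis) from edgeR with TMM (black, bars of 1.96 SE), with GC offsets (green) and with library totals alone (yellow). Library totals move every gene to the left, and GC offsets lower the 3 CELSR genes and DCHS1 while leaving the 4 FAT genes and DCHS2 nearly in place.

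Spread between replicates ranged, as a variance, from below counting error to 2.32 times it. The chi-square per degree of freedom within groups (4 degrees) was 0.433 for DCHS1, 0.517 for CELSR3, 0.739 for DCHS2 and 0.886 for FAT3. It was 1.51 for FAT4, 1.595 for FAT1, 2.15 for CELSR1, 2.24 for CELSR2 and 2.32 for FAT2. With 140 to 676 counts per library, counting alone gives a coefficient of variation of 4.06% for CELSR1 to 7.77% for FAT4. Over the 6 libraries FAT3 and FAT4 followed each other most closely of the 36 pairs of members (Pearson's r = 0.95 of log2 CPM, n = 6 libraries, a description of values that share the library scaling).

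Partners of the pathway were read from 4 lists. Of 24 genes of FAT partners and the Hippo cascade, 0 were called by edgeR, 0 by DESeq2, and 1 had an unadjusted edgeR p under 0.05. The shares over all genes were 0.451%, 0.138% and 9.51%, so that few calls are likely in a list of this size. Their log2 fold changes were above 0 in 9 and below 0 in 15, with a median of −0.027. FJX1, the four-jointed kinase, had the most counts per kb of the list at 36.2 ± 1.75 CPM per kb (SD, n = 6), over an exon length of 2.45 kb with 63.8% GC, and stood at 86.6 ± 4.56 CPM in soft and 91.0 ± 3.24 in stiff (edgeR adjusted p = 0.884). AMOTL2, an angiomotin that holds YAP at junctions, came next at 12.7 ± 0.905 CPM per kb. MOB1B, an activator of the LATS kinases, was lowest at 2.16 ± 0.229, with 34.5% GC.

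Core planar polarity genes gave 1 call among 19, upwards, against 0.286% of all genes in that direction, and 3 had an unadjusted edgeR p under 0.05, against 9.51% of all genes. The gene called was DVL1, a Dishevelled adaptor downstream of Frizzled receptors. DVL1 had 174, 192 and 203 counts in soft and 226, 254 and 280 in stiff libraries, with no overlap, and rose from 70.0 ± 6.37 to 98.2 ± 7.22 CPM (log2 fold change 0.49 ± 0.10, edgeR adjusted p = 0.00154). Its exons are 67.1% GC. Of 639 coding genes with at least 65% GC, 36 were called higher and 0 lower by edgeR, with a median log2 fold change of 0.21. The call was lost by DESeq2 (adjusted p = 0.0670), with GC offsets (0.131, at a log2 fold change of 0.33), with GC and length offsets (0.178), with the replicate block and GC offsets (0.131), with library totals alone (0.125) and without stiff replicate 3 (0.0685), which is 6 of 15 alternatives, over a range from 0.000668 to 0.178. Of the 19 genes 14 were above 0, with a median of 0.10, against 49.1% of all genes and a median of −0.0048. SCRIB, a scaffold of the basolateral membrane, had 131 ± 3.74 and 160 ± 4.598 CPM (edgeR adjusted p = 0.0876) and WNT11, a polarity ligand, 57.0 ± 8.76 and 64.8 ± 3.11 (adjusted p = 0.650). INTU, a ciliary effector that is the nearest coding gene downstream of FAT4, was lowest per kb at 1.92 ± 0.231.

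The families to which the members belong gave no call, where 0.451% of all genes were called by edgeR and 0.138% by DESeq2. Few calls are likely in lists of this size, so nothing is read from their absence. Among 28 other adhesion G protein-coupled receptors tested (of 29 listed), 0 were called by edgeR, 0 by DESeq2 and 2 had an unadjusted edgeR p under 0.05 (9.51% of all genes), with 16 above 0 (49.1% of all genes) and a median of 0.03 (−0.0048 over all genes). ADGRB1, a receptor of brain, was highest per kb at 19.0 ± 2.31 CPM and ADGRG2 lowest at 1.72 ± 0.216. Among 28 other cadherins 0 were called by edgeR, 0 by DESeq2 and 5 had an unadjusted edgeR p under 0.05, with 19 above 0 and a median of 0.08, beside the same shares of 9.51% and 49.1% over all genes. CDH22, a cadherin of brain, was highest at 20.5 ± 1.70 CPM per kb with 64.98% GC, and CDH19, a cadherin of Schwann cells, lowest at 2.29 ± 0.453 with 34.4% GC. As in the giant cadherins, the highest member of each of these 4 lists was a GC-rich gene and the lowest a GC-poor one.

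Coding genes in the band of GC content that holds DCHS1 and the CELSR genes (60 to 65%) had a median log2 fold change of 0.09, with 17 of 2028 called higher and 2 lower. In the band of FAT3, FAT4 and DCHS2 (40 to 45%) the median was −0.025, with 4 of 4006 higher and 5 lower. FAT1, in the next band (45 to 50%), lay among genes with a median of 0.00014. At 65% and above, where DVL1 and GRIN1 lie, the median was 0.21, with 36 of 639 called higher and 0 lower. Coding genes with exons at least as long as those of DCHS1 (1525 genes) had a median of 0.0097 with a SD of 0.15, and 9 of them were called higher and 0 lower by edgeR. Over all genes tested 0.286% were called higher and 0.164% lower. The summed level of the squamous markers was 507 to 521 CPM in soft and 531 to 583 in stiff, with 7 of 14 above 0 and 7 below. KRT14, a keratin of basal cells, was called (log2 fold change 0.69, edgeR adjusted p = 0.0281), and 0 of the 14 were called by DESeq2 or with GC offsets. The shares over all genes were 0.451% by edgeR, 0.138% by DESeq2 and 0.251% with GC offsets. Markers of neurons and glia, where CELSR3 is best known, summed to 387 to 429 and 434 to 461 CPM, with 4 of 6 above 0. GRIN1, a glutamate receptor subunit of 66.2% GC, was called (log2 fold change 0.33, edgeR adjusted p = 0.0165), and its mean alone went from 151 ± 13.6 to 189.6 ± 5.83 CPM (SD, n = 3 each), a difference about as large as that of the sum. Of these 6 genes 0 were called by DESeq2 or with GC offsets, beside the same shares over all genes. Their part in the result was not tested.

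Genes with the pattern most like CELSR3 over the 6 libraries, among 4265 genes with a mean of at least 50 CPM, were PCDH19 (r = 0.996), STK11 (0.995) and PKD1 (0.995), by Pearson's correlation of log2 CPM. In all, 166 genes (3.89%) had an r above 0.9 with it. Most like FAT1 were ADAMTS7P1 (0.965), AZIN2 (0.961) and ARSB (0.959), with 32 genes (0.750%) above 0.9. These values rank genes over 6 libraries and share the library scaling. CELSR3 was selected on its step between soft and stiff, so a high r with it picks out genes with a like step. Exon GC content was 65.6% in STK11, 65.8% in PKD1 and 49.4% in PCDH19.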

How the data were processed

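The authors deposited 1 table of raw counts of reads per gene symbol, 1 column per library, with no normalization. FastQC 0.11.7, Trim Galore 0.4.2, cutadapt 1.9.1, STAR 2.6.1e, featureCounts 1.6.2, DESeq2 1.26.0 and hg38 are named without roles, per the submitters' processing notes; the annotation, the strand setting and the treatment of multi-mapping reads are not given in the sources used here. Groups and replicate numbers came from the titles, since 2 stiff libraries carry the same number in their descriptions. Libraries are labelled biological replicates, and p-values measure the spread between these libraries.

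The main test, stiff against soft, was that of edgeR 4.0.16 under R 4.3.3 (TMM, filterByExpr, robust quasi-likelihood fit, group as the single term), with Benjamini-Hochberg adjustment over all 31074 genes and a threshold of 0.05. DESeq2 1.42.0 without independent filtering, other scalings, offsets from splines (5 degrees of freedom) on GC content and length, and omissions of libraries were alternatives. Standard errors came from the F statistic, and intervals are 1.96 SE. Exon lengths and GC content came from GENCODE 29 for 27207 (71.3%) of the symbols and may differ from the authors' annotation. On counts simulated for this comparison (30638 genes), the test recovered 33.8% of the 1.5-fold changes, 81.5% of the 2-fold and 98.4% of the 4-fold. Of the calls 2.82% were unchanged genes. The simulated counts had 1 dispersion for all genes (0.00625) and no effect of GC content, and changed genes were drawn from all levels. These shares therefore describe neither the members alone nor shifts that go with GC content. Every pair of replicates differed beyond counting noise (chi-square per degree of freedom 1.55 to 4.12). Reads carry no molecular identifiers and PCR copies are not independent, so counting errors are lower limits.

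Members, lists, tests and alternatives were chosen with earlier results of these data known. Genes were named by rule: all members, called genes of the 4 lists, the 2 genes with the most and the 1 with the fewest counts per kb in each, and the 3 genes most like FAT1 and CELSR3.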

Additional observations from a re-analysis of the deposited data

How the results depend on the processing

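The number of genes called was 140, and 43 by DESeq2, 4194 with library totals alone (31 higher, 4163 lower), 58 with GC offsets (26 higher, 32 lower, against 89 and 51), 56 with GC and length offsets, 62 with the replicate block and GC offsets, and 60 to 136 when 1 library was left out (77, 85, 60 and 75 without soft replicate 2, stiff replicate 1, stiff replicate 2 and stiff replicate 3). Of the members 1 was called, CELSR3; it was 0 by DESeq2, with GC offsets, with GC and length offsets, with the replicate block and GC offsets, and 0 to 1 when 1 library was left out (0 without stiff replicate 1), and 2 with library totals alone, where FAT3 (−0.36) and FAT4 (−0.38) were called lower. Its log2 fold change ran from 0.15 to 0.46 over 15 alternatives, and it was not called in 6 of them; since it was selected on this contrast, that range is no support for it. With library totals alone the fold changes of FAT1 (−0.24), FAT2 (−0.084), DCHS1 (−0.18), DCHS2 (−0.081), CELSR1 (−0.12) and CELSR2 (−0.21) turned negative, as the median of all genes did. With GC offsets DCHS1 (−0.0046) and CELSR2 (−0.013) reversed, likewise with GC and length offsets (−0.029 and −0.036) and with the replicate block and GC offsets (−0.0048 and −0.011). FAT1 ran from −0.031 to 0.14 when 1 library was left out, and it was negative without soft replicate 2 (−0.031) or soft replicate 1 (−0.0099). No uncalled member gained a call other than FAT3 and FAT4. The replicate block alone gave 173 calls and left CELSR3 the 1 member called. Deviations of soft and stiff libraries with the same number had correlations of −0.0036 to 0.0035, and those with different numbers −0.0079 to 0.0053. Counting noise lowers such values over all genes, so they cannot tell whether the numbers pair the libraries. Without ribosomal RNA and mitochondrial genes 118 genes were called.

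Per kb of the longest transcript in place of all exons, levels were 4.74 for FAT1, 3.94 for DCHS2, 20.1 for CELSR1 and 14.5 for CELSR2, and DCHS2 then stood above FAT4 (3.89). Relative to genes of like GC content in place of olfactory receptor genes, FAT1, FAT2, FAT3, FAT4 and DCHS1 were at 0.829, 0.935, 1.92, 0.800 and 0.771, and CELSR1, CELSR2 and CELSR3 at 1.64, 1.16 and 0.698. The cause of these shifts was not tested beyond the construction of each alternative. With 3 libraries a group and 140 to 676 counts per member, standard errors of the members' log2 fold changes were 0.074 to 0.12.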
